A study of Mus musculus with 5 samples.

Results

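Interferon-induced antiviral effectors outside the IFIT, OAS, ISG15, TRIM and guanylate-binding protein families were followed in mouse embryonic fibroblasts treated with 4 small molecules. Members were taken from a list of 42 genes, and each was read on the probe set that the platform annotation assigns to that gene alone, the one with the highest mean where several existed. Of the 42 genes, 36 had such a probe set, out of 22180 genes on the array, and 33 of the 36 reached the array median on at least 1 array. All cells were STING-/- fibroblasts reconstituted with the R284S variant of STING, and the labels call them primary cells. They were treated for 9 hours with Compound C (an inhibitor of AMPK and of BMP type I receptors), doxorubicin (an anthracycline that poisons topoisomerase II), GSK 690693 (an inhibitor of AKT kinases that also acts on AMPK), tofacitinib (a JAK kinase inhibitor) or vehicle. There was 1 array per treatment and 5 arrays in all, with no replicate, so a difference here compares 2 single arrays and carries neither an error nor a test. No array came from cells with wild-type STING or without STING, and no label states a dose.

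Type I interferon binds the receptor formed by Ifnar1 and Ifnar2, which activates the kinases Jak1 and Tyk2. Their substrate Stat2 joins Irf9 in the complex ISGF3, which binds interferon-stimulated response elements (ISREs) in the promoters of many antiviral genes. STING can start this sequence through Tbk1 and Irf3 by inducing interferon beta, and Irf3 also induces some of the same genes directly. The effectors described here are grouped as products of interferon-induced genes. Among them are proteins that hold virus at membranes, modify proteins with ADP-ribose, sense nucleic acids, restrict translation or promote cell death.

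Fibroblast markers were present on all arrays. All 10 (among them Col1a1, Vim and Fn1) reached the array median, with log2 signals between 6.30 and 12.68. Of 8 leukocyte markers with a probe set, Cd68, Csf1r and Cd14 reached it, Csf1r on the GSK 690693 array alone. The pan-leukocyte gene Ptprc stayed between 3.65 and 3.86. The log2 of the summed leukocyte marker signal was 8.40 under Compound C, 8.73 under doxorubicin, 8.30 under GSK 690693 and 8.26 under tofacitinib, against 8.18 under vehicle. Cd68 read 7.63 under doxorubicin and 6.56 under vehicle, and the part of these markers in the doxorubicin differences given further on was not tested. Of 5 endothelial and 5 epithelial markers, 2 and 3 reached the array median on at least 1 array, and none of them read above 6.26. Among these, the endothelial Cdh5 and the epithelial Krt18 reached it with doxorubicin alone. The median log2 signal of the 12317 genes that reached the array median differed from vehicle by −0.06 under Compound C, −0.06 under doxorubicin, 0.07 under GSK 690693 and 0.17 under tofacitinib.

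As a group the effectors read lowest with tofacitinib, and the order of the compounds differed from member to member. Relative to vehicle, 19 of the 33 were at least 1.5-fold lower with tofacitinib (57.6%), where 2.0% of the 12317 genes were, and 0 were at least 1.5-fold higher, where 2.66% were. The 19 include Slfn5, which reached the array median on neither the tofacitinib nor the vehicle array. With Compound C, 10 were lower (30.3%) against 9.99% of genes, and 0 were higher against 6.06%. With GSK 690693, 9 were lower (27.3%) against 3.21% of genes, and 0 were higher against 2.40%. With doxorubicin, 4 were lower (12.1%) against 14.2% of genes and 3 were higher (9.09%) against 11.5%, shares near those of all genes. The median log2 difference of the 33 was −0.32 under Compound C, 0.01 under doxorubicin, −0.36 under GSK 690693 and −0.75 under tofacitinib, and that of the 12317 genes was −0.02, 0.05, 0.04 and 0.09 in the same order. Below vehicle by any amount with tofacitinib were 31 of the 33 effectors, and 35.8% of genes. All 4 comparisons use the same vehicle array, and in bulk RNA fewer cells with a transcript and less transcript per cell cannot be told apart. With each array centred on its median, 20 members were lower with tofacitinib and the genes split into 4.87% lower and 0.544% higher. The same centring gave 13 lower members with GSK 690693, with 4.39% of genes lower and 1.39% higher, and 8 under Compound C, with 8.33% lower and 7.67% higher. With doxorubicin it gave 3 lower and 3 higher members, with 12.8% of genes lower and 14.4% higher. When each compound array was compared with the median of the other 4 arrays (vehicle and 3 compounds) in place of vehicle, the median difference of the 33 was −0.14 under Compound C, 0.36 under doxorubicin, −0.15 under GSK 690693 and −0.43 under tofacitinib. By that measure 14 effectors were lower with tofacitinib against 1.06% of genes, and 0 higher against 3.21%. With Compound C 3 were lower against 10.8% of genes and 1 higher against 4.73%, and with GSK 690693 4 were lower against 1.93% and 1 higher against 2.09%. With doxorubicin 1 was lower against 14.8% of genes and 9 were higher against 7.48%.

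**Figure D1:**
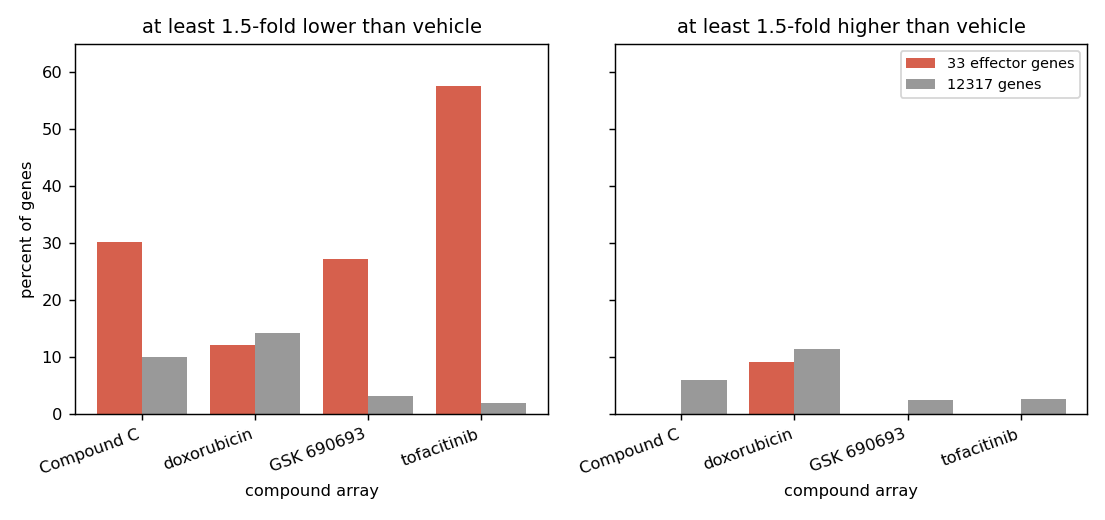
Percent of genes at least 1.5-fold lower (left) or higher (right) on each compound array than on the vehicle array, for the 33 effector genes (red) and the 12317 genes that reached the array median (grey); 1 array per group, no error bars. The red bar for tofacitinib stands at 57.6% beside a grey bar of 2.0%, and the 2 bars for doxorubicin are close to each other on both sides.

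At the 2-fold level, 11 effectors were lower with tofacitinib (against 0.414% of all genes, and so for each share in parentheses), 3 under Compound C (2.52%), 3 under GSK 690693 (0.601%) and 1 under doxorubicin (6.45%). The 3 under Compound C were Parp14, Apol9a and Apol9b, and the 3 under GSK 690693 were Mx2, Ifi205 and Sp100. One effector, Ifi27, was at least 2-fold higher, with doxorubicin (1.33% of genes). Just inside the 1.5-fold level, which is 0.585 on the log2 scale, lay Ifi204 under Compound C (−0.60), Bst2 under GSK 690693 (−0.60) and Nmi with tofacitinib (−0.60). Just outside it lay Parp9 under Compound C (−0.58) and, on the higher side, Ifi27 with tofacitinib (0.54). Under GSK 690693, Ifi35 (−0.56), Apol9b (−0.56), Tor3a (−0.55) and Helz2 (−0.54) also lay just outside it, and centring each array moved them past it. Tofacitinib gave the lowest of the 5 signals for 19 of the 33 effectors, where 10.9% of genes were lowest on that array. Compound C gave the lowest signal for 7 (28.7% of genes), GSK 690693 for 3 (14.7%), doxorubicin for 2 (25.3%) and vehicle for 1 (18.2%). Znfx1 was equally low with GSK 690693 and tofacitinib. The 7 lowest with Compound C were Parp14, Pnpt1, Tdrd7, Apol9a, Apol9b, Ifi30 and Plac8, and the 1 lowest with vehicle was Ifi27.

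**Figure D2:**
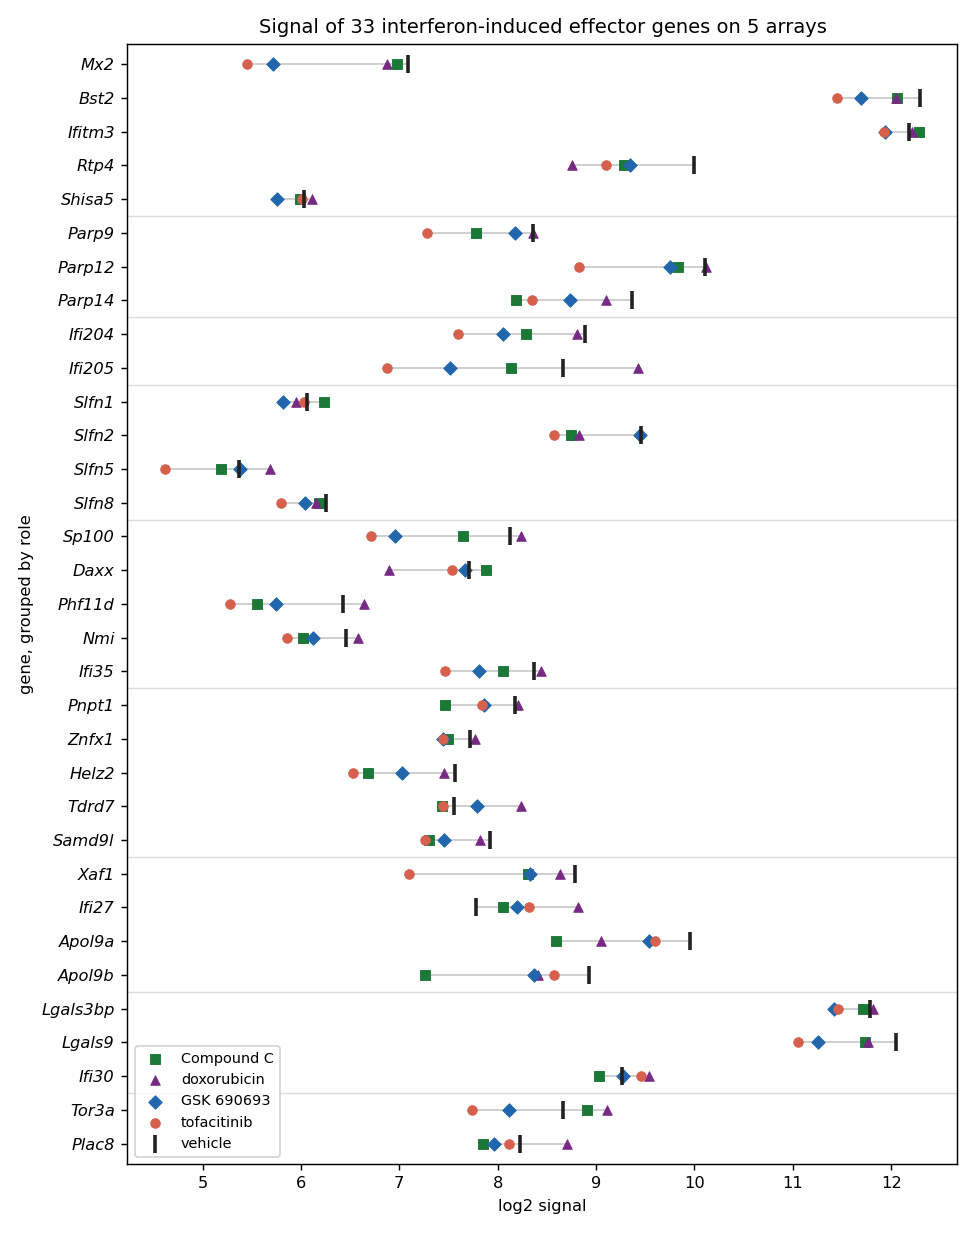
Log2 signal (horizontal axis) of the 33 effector genes, grouped by role, on the arrays of Compound C (squares), doxorubicin (triangles), GSK 690693 (diamonds), tofacitinib (circles) and vehicle (bars); grey lines join the lowest and highest array, and levels can be compared along a row but not between genes. The tofacitinib circle is leftmost in 19 rows, and the Compound C square is leftmost for Apol9a and Apol9b.

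Promoter sequences are shown for the effectors that hold the core of an ISRE before their start, since this is the element through which ISGF3 acts. Windows of 300 bases, from 250 before to 50 after each RefSeq start (build GRCm38.p6), were found for 26 of the 33 effectors, by symbol. The ISRE core was searched on both strands as a pair of GAAA blocks with any 2 bases between them, which read as TTTC blocks when the core lies on the opposite strand. It was found for 10 of the 26 effectors (38.5%), against 3.55% of the 9718 genes that reached the array median and had a window. Among all 27025 genes with a window, 3.99% held it. For 8 of the 10 a match lay before the start. A second motif was the gamma-activated site core TTCNNNGAA, which reads the same on both strands. It was found for 4 of the 26 effectors (15.4%), against 7.85% of the 9718 genes and 9.55% of the 27025. Matches of the 2 motifs overlapped in 3 effectors, Bst2, Ifitm3 and Shisa5. Below are 80 bases of each of the 8 promoters, 5′ to 3′ on the strand of the gene, with the ISRE core matches in capitals.
Bst2: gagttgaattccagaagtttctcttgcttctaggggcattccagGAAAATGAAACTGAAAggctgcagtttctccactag
Lgals9: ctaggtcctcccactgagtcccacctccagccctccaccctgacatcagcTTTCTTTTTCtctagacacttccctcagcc
Ifi205: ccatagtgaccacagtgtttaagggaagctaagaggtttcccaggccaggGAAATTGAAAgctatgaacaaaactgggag
Slfn5: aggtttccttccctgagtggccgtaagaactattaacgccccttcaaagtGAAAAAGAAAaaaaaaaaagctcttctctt
Slfn8: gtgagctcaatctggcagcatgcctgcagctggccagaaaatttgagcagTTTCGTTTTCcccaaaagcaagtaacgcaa
Apol9a: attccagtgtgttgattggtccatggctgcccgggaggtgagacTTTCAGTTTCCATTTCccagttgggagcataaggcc
Apol9b: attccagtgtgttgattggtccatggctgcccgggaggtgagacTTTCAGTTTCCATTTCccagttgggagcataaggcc
Tdrd7: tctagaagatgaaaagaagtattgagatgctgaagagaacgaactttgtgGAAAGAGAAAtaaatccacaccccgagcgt

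On the plus strand lie the printed bases of Slfn5 (chr11:82951897-82951976), Apol9b (chr15:77728991-77729070) and Tdrd7 (chr4:45972056-45972135). The minus strand holds those of Bst2 (chr8:71537567-71537646), Lgals9 (chr11:78984950-78985029), Ifi205 (chr1:174031860-174031939), Slfn8 (chr11:83020829-83020908) and Apol9a (chr15:77411104-77411183). Within the 80 bases, Bst2, Apol9a and Apol9b each hold 2 overlapping cores that share a GAAA block, and the others hold 1. Lgals9 and Ifi205 each have a further core after the start. The printed bases of Apol9a and Apol9b are identical at 80 of 80 positions. The responses of these 8 genes differed in size: with tofacitinib the log2 difference from vehicle was −1.78 for Ifi205, −1.0 for Lgals9, −0.84 for Bst2 and −0.75 for Slfn5, but −0.45 for Slfn8, −0.36 for Apol9b, −0.35 for Apol9a and −0.12 for Tdrd7. The 10 effectors with a core had a median difference with tofacitinib of −0.405, and the 16 without it one of −0.63. Of the 9718 genes that reached the array median and had a window, 345 held a core, and 335 of these were not effectors described here. Other interferon-stimulated genes were not removed from the 335, and their part in the shares that follow was not tested. Among the 335, 23 (6.87%) were at least 1.5-fold lower with tofacitinib, against 1.76% of the 9718. With GSK 690693 22 (6.57%) were lower against 2.91%, with Compound C 39 (11.6%) against 9.79%, and with doxorubicin 50 (14.9%) against 14.4%. A match describes the letters in the window and does not show a bound site.

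Among the Mx GTPases and the effectors that act at membranes, Mx2 and Bst2 read lower with tofacitinib and GSK 690693. Ifitm3 stayed close to vehicle on every array. Mx2, a dynamin-like antiviral GTPase, had log2 signals of 6.98 under Compound C, 6.87 under doxorubicin, 5.72 under GSK 690693 and 5.45 under tofacitinib, against 7.09 under vehicle. It was 3.12-fold lower with tofacitinib and 2.58-fold lower with GSK 690693, while Compound C and doxorubicin lay within 0.22 of vehicle. Bst2, or tetherin, which ties budding virions to the cell surface, read 12.06 under Compound C, 12.05 under doxorubicin, 11.69 under GSK 690693 and 11.45 under tofacitinib, against 12.29 under vehicle. The arrays fell in the same order as for Mx2, over a smaller range of 0.84. Ifitm3, which prevents fusion of viruses with endosomes, read 12.28 under Compound C, 12.21 under doxorubicin, 11.94 under GSK 690693 and 11.93 under tofacitinib, against 12.18 under vehicle. Its whole range was 0.35. Signals of this size lie near the top of the scale, which ended at 13.18, and how far that limits differences was not tested.

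Rtp4, a Golgi chaperone of G protein-coupled receptors that also restrains interferon signalling, was the effector furthest below vehicle with doxorubicin. Its signals were 9.28 under Compound C, 8.76 under doxorubicin, 9.34 under GSK 690693 and 9.10 under tofacitinib, against 10.0 under vehicle. All 4 compound arrays lay at least 1.5-fold below vehicle, and doxorubicin was 2.36-fold lower. Shisa5, an endoplasmic reticulum protein linked to p53-dependent death, kept within 0.27 of vehicle on every array. Mx1 and Ifitm1 stayed below the array median on all arrays. Mx1 read 4.09 under Compound C, 4.89 under doxorubicin, 3.94 under GSK 690693 and 3.58 under tofacitinib, against 3.95 under vehicle. Ifitm1 read 3.86, 4.81, 3.42 and 3.86 in the same order of compounds, against 3.58 under vehicle. For both the doxorubicin array was the highest, at a level where a background signal cannot be told apart from transcript.

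The poly-ADP-ribose polymerase family members Parp9, Parp12 and Parp14 were each at least 2-fold lower with tofacitinib. Parp12, a mono-ADP-ribosyltransferase with antiviral activity, read 9.83 under Compound C, 10.12 under doxorubicin, 9.75 under GSK 690693 and 8.83 under tofacitinib, against 10.11 under vehicle. The tofacitinib array stood 0.92 below the next lowest, and the other 4 lay within 0.37 of each other. Parp9, which works as a complex with the ubiquitin ligase Dtx3l, read 7.78 under Compound C, 8.36 under doxorubicin, 8.18 under GSK 690693 and 7.28 under tofacitinib, against 8.36 under vehicle. Doxorubicin and vehicle were equal for this gene. Parp14, an ADP-ribosyltransferase linked to interferon responses, read 8.19 under Compound C, 9.10 under doxorubicin, 8.74 under GSK 690693 and 8.35 under tofacitinib, against 9.37 under vehicle. Here Compound C (−1.18) lay slightly below tofacitinib (−1.02), unlike in Parp12, where Compound C was within 0.28 of vehicle. Parp10 and Dtx3l are measured by probe sets shared with another gene and are not described.

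Both measured members of the p200 family, nuclear and cytosolic proteins with DNA-binding HIN domains, were lower with tofacitinib and GSK 690693. Ifi204, a DNA sensor that signals through STING, read 8.29 under Compound C, 8.81 under doxorubicin, 8.05 under GSK 690693 and 7.60 under tofacitinib, against 8.89 under vehicle. Ifi205 read 8.14 under Compound C, 9.43 under doxorubicin, 7.52 under GSK 690693 and 6.88 under tofacitinib, against 8.66 under vehicle. Ifi205 had the widest range of the 33 effectors, 2.55 between doxorubicin and tofacitinib, with doxorubicin 0.77 above vehicle and tofacitinib 3.43-fold below it. Ifi203 shares its probe set with another gene and is not described. The p200 genes are close relatives, so part of a signal may come from another member, which was not tested.

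Among the Schlafens, interferon-induced proteins that act on tRNA and on cell growth, Slfn2 and Slfn5 were at least 1.5-fold lower with tofacitinib, and Slfn1 and Slfn8 were not. Slfn2, which maintains quiescence of T cells, read 8.75 under Compound C, 8.83 under doxorubicin, 9.45 under GSK 690693 and 8.57 under tofacitinib, against 9.46 under vehicle. GSK 690693 and vehicle were 0.01 apart, and the other 3 arrays were at least 1.5-fold lower than vehicle. Slfn5 differed from vehicle by −0.75 under tofacitinib and by at most 0.32 with the others, but reached the array median only with doxorubicin and GSK 690693. Slfn8 differed by −0.45 under tofacitinib, and Slfn1 lay within 0.24 of vehicle on every array. Slfn9 shares its probe set with another gene and is not described.

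Of 5 effectors tied to nuclear bodies, chromatin or STAT proteins, Sp100, Phf11d, Nmi and Ifi35 were at least 1.5-fold lower with tofacitinib. Sp100, a scaffold of PML nuclear bodies, read 7.65 under Compound C, 8.24 under doxorubicin, 6.96 under GSK 690693 and 6.71 under tofacitinib, against 8.13 under vehicle. A second probe set of Sp100 gave differences of −0.49, −0.06, −1.0 and −1.55 in that order of compounds, close to −0.48, 0.11, −1.17 and −1.42 on the first, and its 2 further probe sets read between 2.40 and 3.34 on every array. Phf11d, a PHD finger protein, read 5.55 under Compound C, 6.64 under doxorubicin, 5.75 under GSK 690693 and 5.28 under tofacitinib, against 6.43 under vehicle. It was lower than vehicle by over 1.5-fold on 3 arrays and slightly higher on the doxorubicin array, and on tofacitinib it was below the array median. Ifi35, which forms a complex with Nmi, read 8.05 under Compound C, 8.44 under doxorubicin, 7.81 under GSK 690693 and 7.46 under tofacitinib, against 8.37 under vehicle. Its second probe set differed from vehicle by at most 0.28. Nmi, a partner of STAT proteins, ranged between 5.86 under tofacitinib and 6.58 under doxorubicin. Daxx, a histone H3.3 chaperone of the same nuclear bodies as Sp100, differed in another way, at 7.88 under Compound C, 6.90 under doxorubicin, 7.67 under GSK 690693 and 7.54 under tofacitinib, against 7.71 under vehicle. Of the 4 compound arrays, the doxorubicin array alone lay at least 1.5-fold below vehicle.

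**Figure D3:**
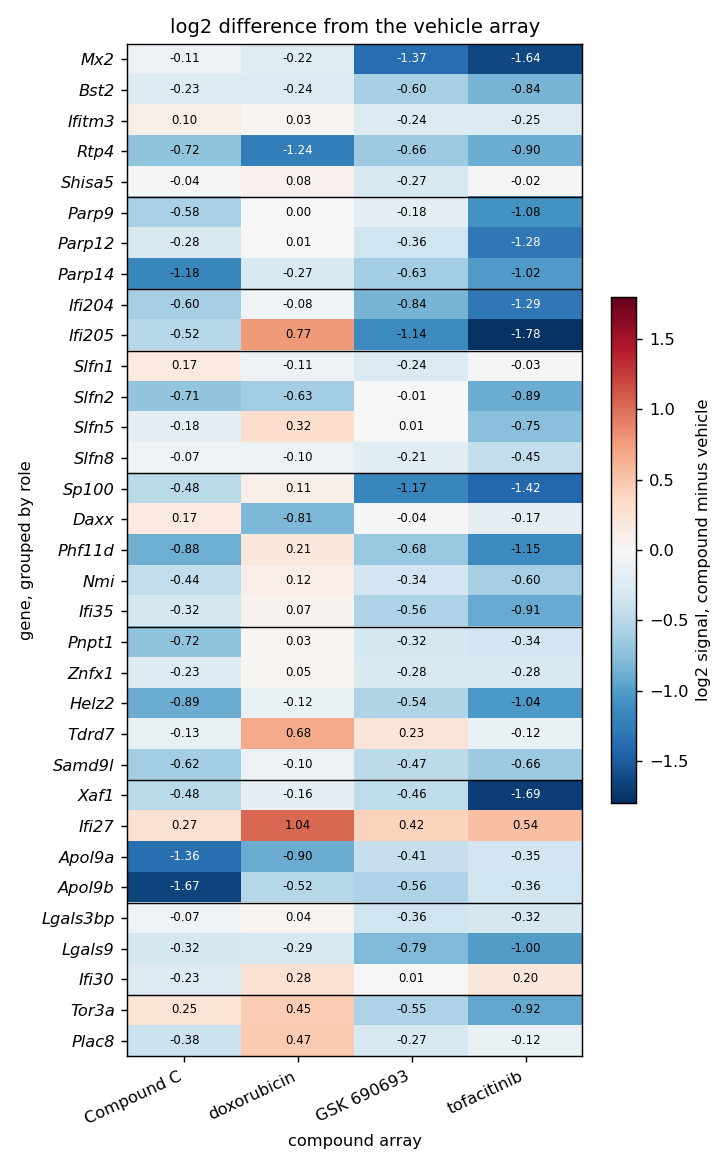
Log2 signal on each compound array minus that on the vehicle array for the 33 effector genes, grouped by role; blue is lower than vehicle, red is higher, and the number in each cell is the difference. The tofacitinib column is blue in 31 of 33 rows, Apol9a and Apol9b are darkest under Compound C, and Ifi27 is above vehicle in all 4 columns.

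Among 5 effectors that bind or process RNA or inhibit translation, 3 read lower with Compound C and 2 with tofacitinib. Pnpt1, Helz2 and Samd9l lay at least 1.5-fold below vehicle with Compound C, and Helz2 and Samd9l with tofacitinib. Helz2, a helicase that serves as a nuclear receptor coactivator, read 6.68 under Compound C, 7.45 under doxorubicin, 7.03 under GSK 690693 and 6.53 under tofacitinib, against 7.57 under vehicle. Pnpt1, a polynucleotide phosphorylase of mitochondria, read 7.46 under Compound C, 8.21 under doxorubicin, 7.86 under GSK 690693 and 7.84 under tofacitinib, against 8.18 under vehicle. Compound C was the only array more than 1.5-fold below vehicle for Pnpt1. Samd9l, which inhibits translation and cell growth, differed by −0.62 under Compound C and −0.66 under tofacitinib, and the RNA sensor helicase Znfx1 lay within 0.28 of vehicle. Tdrd7, a Tudor protein that restrains AMPK-driven autophagy, differed by −0.13 under Compound C, 0.68 under doxorubicin, 0.23 under GSK 690693 and −0.12 under tofacitinib. It passed the 1.5-fold level with doxorubicin and lay within 0.23 of vehicle on the other arrays.

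Effectors of cell death and the apolipoprotein L genes split between the compounds. Xaf1, an antagonist of the caspase inhibitor XIAP, read 8.31 under Compound C, 8.63 under doxorubicin, 8.33 under GSK 690693 and 7.10 under tofacitinib, against 8.79 under vehicle. It was 3.23-fold lower with tofacitinib, and the tofacitinib array lay 1.21 below the next lowest. Apol9a read 8.59 under Compound C, 9.05 under doxorubicin, 9.54 under GSK 690693 and 9.60 under tofacitinib, against 9.95 under vehicle. Apol9b read 7.26 under Compound C, 8.41 under doxorubicin, 8.37 under GSK 690693 and 8.57 under tofacitinib, against 8.93 under vehicle. Both were lowest with Compound C, 2.57-fold for Apol9a and 3.18-fold for Apol9b, and both lay within 0.36 of vehicle with tofacitinib. These 2 genes are close paralogs with the same 80 printed promoter bases, so their probe sets may share targets and do not count as independent observations. Ifi27, a mitochondrial and nuclear membrane protein, read 8.05 under Compound C, 8.82 under doxorubicin, 8.20 under GSK 690693 and 8.32 under tofacitinib, against 7.78 under vehicle. It was above vehicle on all 4 compound arrays and 2.06-fold higher with doxorubicin.

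Of the galectin and lysosomal effectors, Lgals9 was lower with tofacitinib and GSK 690693. Lgals9, or galectin-9, a lectin ligand of TIM-3, read 11.73 under Compound C, 11.76 under doxorubicin, 11.26 under GSK 690693 and 11.05 under tofacitinib, against 12.05 under vehicle. Lgals3bp, a secreted glycoprotein that binds galectin-3, read 11.71 under Compound C, 11.82 under doxorubicin, 11.42 under GSK 690693 and 11.46 under tofacitinib, against 11.78 under vehicle. Its second probe set disagreed for tofacitinib: it read 8.27 under tofacitinib and 9.43 under vehicle, a difference of −1.16 where the first gave −0.32. Ifi30, the lysosomal thiol reductase GILT, lay within 0.28 of vehicle on every array.

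Among the remaining effectors, Tor3a, an interferon-responsive torsin ATPase, read 8.91 under Compound C, 9.11 under doxorubicin, 8.11 under GSK 690693 and 7.74 under tofacitinib, against 8.66 under vehicle. It stood above vehicle with Compound C and doxorubicin and below it with GSK 690693 and tofacitinib. Plac8, a cysteine-rich protein abundant in leukocytes, differed by −0.38 under Compound C, 0.47 under doxorubicin, −0.27 under GSK 690693 and −0.12 under tofacitinib. Epsti1 stayed below the array median, between 3.96 under tofacitinib and 4.77 under doxorubicin. Ifi47 shares its probe set with another gene and Ifi44 is not listed with a probe set, so neither is described.

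Set against each other rather than against vehicle, the compounds differed by member. Tofacitinib was at least 1.5-fold lower than Compound C for 10 effectors (5.50% of genes) and higher for 2 (15.3%). The 10 included Mx2 (−1.53), Ifi205 (−1.26), Xaf1 (−1.21), Tor3a (−1.17) and Parp12 (−1.0), and the 2 were Apol9b (1.31) and Apol9a (1.01). Tofacitinib was lower than GSK 690693 for 6 effectors (1.14% of genes), namely Xaf1 (−1.23), Parp12 (−0.92), Parp9 (−0.90), Slfn2 (−0.88), Slfn5 (−0.76) and Ifi205 (−0.64), and higher for 0 (2.31%). Slfn5 read 4.62 with tofacitinib, below the array median, where a background signal cannot be told apart from transcript. GSK 690693 was lower than Compound C for 4 effectors (5.18% of genes), Mx2 (−1.26), Tor3a (−0.80), Sp100 (−0.69) and Ifi205 (−0.62). It was higher than Compound C for 3 (11.2%), Apol9b (1.11), Apol9a (0.95) and Slfn2 (0.70). Doxorubicin was higher than Compound C for 10 effectors (15.4% of genes), led by Ifi205 (1.29), Apol9b (1.15) and Phf11d (1.09), and lower for 1 (14.9%), Daxx (−0.98). Tofacitinib was lower than doxorubicin for 18 effectors (5.68% of genes), Slfn5 again among them, and higher for 1 (16.8%), Daxx. GSK 690693 was lower than doxorubicin for 9 (11.3%) and higher for 2 (16.5%), Daxx and Slfn2.

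**Figure D4:**
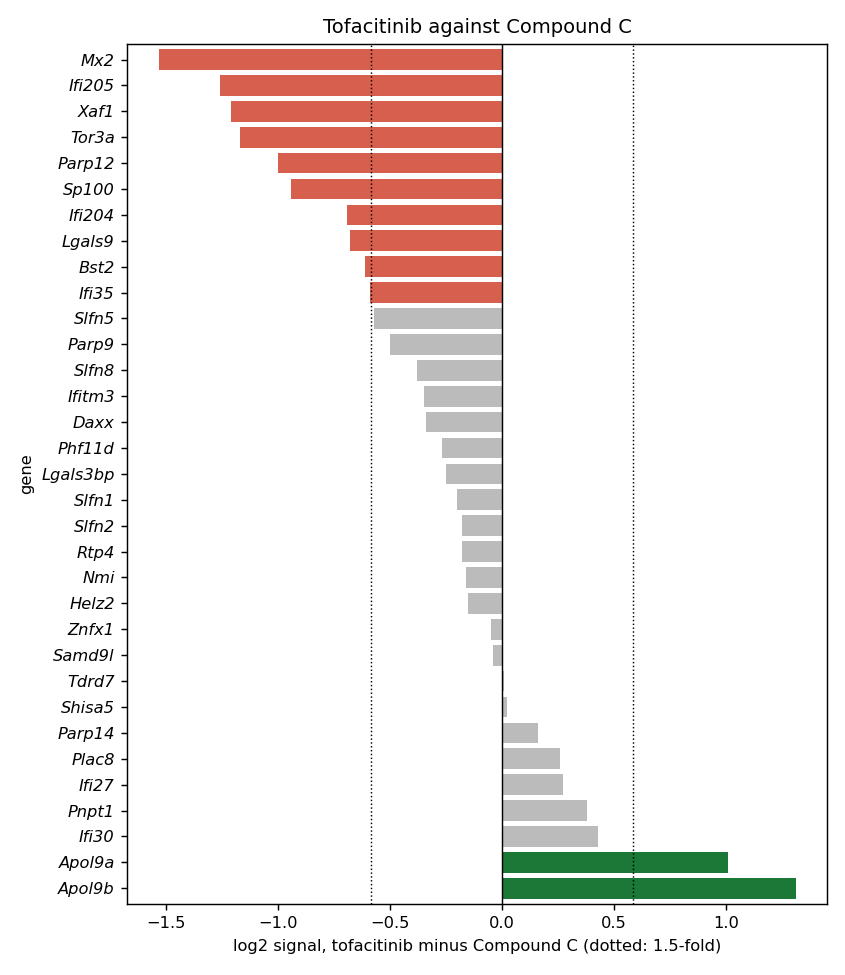
Log2 signal on the tofacitinib array minus that on the Compound C array for each of the 33 effector genes, sorted; dotted lines mark 1.5-fold, red bars lie past it on the lower side and green bars on the higher side. The 10 red bars run between −1.53 for Mx2 and −0.59 for Ifi35, and the 2 green bars are Apol9a (1.01) and Apol9b (1.31).

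The genes that carry or restrain the interferon signal to these effectors were read from a list of 16. Of these, 15 had a probe set of their own and 14 reached the array median. With tofacitinib 4 of the 14 were at least 1.5-fold lower, where 2.0% of the 12317 genes were, and 0 higher (2.66%). The 4 were Stat2, Irf9 and the inhibitors Usp18 and Socs3. The receptor and kinase genes Ifnar1 (0.27), Ifnar2 (−0.07), Jak1 (0.04) and Tyk2 (0.11) stayed within 1.5-fold of vehicle with tofacitinib. With doxorubicin 4 were lower (14.2% of genes) and 1 higher (11.5%). With Compound C 1 was lower (9.99%) and 0 higher (6.06%), and with GSK 690693 1 was lower (3.21%) and 0 higher (2.40%). Usp18, an ISG15 protease that also blocks the interferon receptor, read 10.56 under Compound C, 10.84 under doxorubicin, 10.25 under GSK 690693 and 8.10 under tofacitinib, against 10.87 under vehicle. Irf9, the DNA-binding subunit of ISGF3, read 8.26 under Compound C, 8.07 under doxorubicin, 8.66 under GSK 690693 and 7.37 under tofacitinib, against 8.98 under vehicle. Stat2 was 1.22 lower on the log2 scale with tofacitinib (8.82, against 10.04 under vehicle) and within 0.37 of vehicle elsewhere. Socs3, a feedback inhibitor of JAK kinases, differed by −1.08 under tofacitinib and −0.90 under doxorubicin, and Tbk1 by −1.55 under doxorubicin. Irf7 differed by 0.50 under doxorubicin and −0.49 under tofacitinib. Ifnb1 lay between 2.56 and 2.88 on all 5 arrays, below the array median, so interferon beta transcript was not resolved here.

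A second list held 51 other interferon-stimulated genes, 46 of which reached the array median. It shares Stat2, Irf7, Irf9 and Usp18 with the signalling list, and 3 of these 4 (Stat2, Irf9 and Usp18) count as lower with tofacitinib in both. With tofacitinib 22 of the 46 were at least 1.5-fold lower (2.0% of the 12317 genes), with GSK 690693 22 (3.21%) and with Compound C 19 (9.99%), and 0 were higher with any of these compounds (2.66%, 2.40% and 6.06%). With doxorubicin 3 were lower (14.2% of genes) and 3 higher (11.5%). Their median differences were −0.56 under tofacitinib, −0.52 under GSK 690693, −0.425 under Compound C and −0.045 under doxorubicin. For the 33 effectors described here the same medians were −0.75, −0.36, −0.32 and 0.01. The number of arrays does not allow a test of whether the effectors and the other interferon-stimulated genes differ.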

How the data were processed

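Each array was deposited as a column of log2 signals, 1 for each probe set, which the authors made with Affymetrix Expression Console 1.3.1.187, per the submitters' processing notes. RNA (300 ng) was prepared with a whole-transcript kit, per the labels' protocols. How background was corrected, probes summarised and arrays normalized is not stated in the sources used here. A quantile step, if used, would have removed a shift of most genes one way. The log base was inferred from the values, which ran between 1.05 and 13.18.

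Of 41345 probe sets, 23521 had 1 symbol in the platform annotation, 1814 had several (named for none) and 16010 were not listed with a gene. All 36 members with a probe set carried the same symbol under their identifier in RefSeq (GRCm38.p6). A gene was used if any of its 5 values reached that array's median over single-symbol probe sets, between 5.37 and 5.44.

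Differences are log2 signal on one array minus that on another, counted at 1.5-fold, with no p-value because each group has 1 array. Values in full are given for effectors at least 2-fold from vehicle on any array and for the brightest of each role group; others were named after their values were seen, and Bst2, Daxx, Mx1 and Ifitm1 are given in full on that basis. Members, roles and lists were chosen with earlier results of these data known. Counting was tested on simulated data. Python 3.11.15, NumPy 2.4.6 and pandas 2.3.3 were used.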

Additional observations from a re-analysis of the deposited data

How the results depend on the processing

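Counts depended most on the level and on the array used for comparison. At 2-fold in place of 1.5-fold, 3 effectors were lower with Compound C, 1 lower and 1 higher with doxorubicin, 3 lower with GSK 690693 and 11 lower with tofacitinib. Against the median of the other 4 arrays in place of vehicle, which itself holds the other compounds, 3 were lower and 1 higher with Compound C, 1 lower and 9 higher with doxorubicin, 4 lower and 1 higher with GSK 690693, and 14 lower and 0 higher with tofacitinib. Without the filter on dim probe sets, 5 instead of 3 were higher with doxorubicin, the 2 added being Mx1 and Ifitm1. The other counts stayed within 1.5 times under centring of each array, the mean over all probe sets and no filter. Among 132 differences from vehicle, centring moved 8 across the 1.5-fold level and the mean over probe sets moved 2. No paired analysis was possible because each group has 1 array. Leaving out a replicate was not possible either. Signal over background limits what can be said of probe sets below the array median.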
